A study of Mus musculus with 18 samples.

Results

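The genes described here are the MYC and MAX network genes of mouse monocytes that were differentiated with GM-CSF. They are Myc, Mycl, Mycn, Max, Mxd1, Mxd3, Mxd4, Mxi1 and Mnt, which are 9 of the 20298 genes in the expression table, and each was found there by its symbol. They were chosen by their RPKM (reads scaled by transcript length and by the reads assigned in a library) in the 18 libraries, with the contrast between Mycl and Myc already seen. Their levels and differences are therefore given as a description, with standard errors (SE) and no test.

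The libraries are RNA-seq libraries of WT mice and of DKI mice, both on the C57BL/6 background. DKI is the double knock-in of the STAT5A and STAT5B N-domains, which leaves STAT5 dimers but prevents STAT5 tetramers, and it is carried by all cells of the animal. Ly6C+ CCR2+ monocytes were enriched by removal of other cells and were harvested untreated on day 0, or as monocyte-derived cells (MDCs) on day 3 or 6 of culture in GM-CSF at 20 ng/mL. Each of the 6 groups holds 3 libraries, and the ages and sexes of the mice are not given in the sources used here. Day 0 cells were neither cultured nor given GM-CSF. In comparisons over time, GM-CSF, time in culture and loss of other cells therefore cannot be told apart.

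MYC, MYCL and MYCN are transcription factors that bind DNA at E-boxes as dimers with MAX and activate genes of growth, ribosome production and metabolism. MAX also pairs with MXD1, MXD3, MXD4, MXI1 and MNT, which recruit corepressors and oppose MYC at the same sites. MYC is widely used by dividing cells, whereas MYCL is known in the myeloid lineage from dendritic cells, where it takes over from MYC. STAT5 is the main transcription factor activated by GM-CSF.

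On day 0, Ly6c2, which encodes the Ly6C antigen that names these cells, was at 953 to 1760 RPKM in the WT and 1100 to 1580 RPKM in the DKI libraries. The sample labels name the liver as the tissue whereas the study's methods name the bone marrow. The hepatocyte markers Alb and Ttr were at 0 in all 18 libraries, and the summed RPKM of the 4 hepatocyte markers did not exceed 0.047. Reads assigned to genes ranged from 29542198 to 43157716 per library. Library names place replicate 1 of days 3 and 6 in an earlier year than all other libraries. The DKI replicate 1 library of day 3 stood apart, with Ly6c2 at 775 RPKM against 49.5 and 73.8 in the other DKI libraries of that day, and values that rest on it are marked below. These are bulk libraries, in which fewer cells of a type and less RNA per cell cannot be told apart.

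The 9 genes lie on 8 chromosomes of the GRCm38 assembly. Mycl spans chr4:122995588-123002490 and Myc spans chr15:61985341-61990361. Max (chr12:76937269-76962323) and Mycn (chr12:12936093-12941836) are on 1 chromosome but far apart. The 5 repressor genes are Mxd1 (chr6:86647044-86669234), Mxd3 (chr13:55325170-55329900), Mxd4 (chr5:34176580-34187710), Mxi1 (chr19:53310128-53373293) and Mnt (chr11:74830806-74845725). Mxd3 overlaps Prelid1, and Mxd1 and Mxi1 each overlap a long noncoding RNA gene (Gm38850 and Gm30541). How strand was counted is not given in the sources used here, so reads of the overlapping parts may belong to either gene.

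The RefSeq promoter table for this build holds 8 of the 9 genes, all but Myc. The 250 bases before each start were searched for TTCNNNGAA, the GAS motif that STAT5 dimers bind, and for the E-box CACGTG, each of which reads the same on both strands and cannot overlap the other. The GAS letters were in none of the 10 listed starts of these genes and in 7.02% of the 32851 promoters of the table. The E-box letters were in 2, those of Mxd4 and Mnt, and in 6.02% of all promoters. A match describes only these letters in this window. The stretch of Mycl is shown because Mycl carries the difference described below, and those of Mxd4 and Mnt because they hold the E-box, which is in capitals.
Mycl, the 119 bases before the listed start, which lies inside the gene span given above, chr4:122995812-122995930, plus strand: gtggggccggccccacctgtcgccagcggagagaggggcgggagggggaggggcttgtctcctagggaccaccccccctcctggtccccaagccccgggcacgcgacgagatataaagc
Mxd4, 30 bases around the E-box that begins 219 bases before the start, chr5:34187912-34187941, minus strand: gggctgggccacCACGTGctgttgctaagc
Mnt, 30 bases around the E-box that begins 123 bases before the listed start, which lies inside the gene span given above, as does the end of this stretch, chr11:74830789-74830818, plus strand: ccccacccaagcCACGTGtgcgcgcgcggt

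Mycl, the MYC family member of dendritic cells, was high only in the WT libraries with GM-CSF. On day 0 it was at 0.217, 0.243 and 0.675 RPKM in WT monocytes and at 0.184, 0.41 and 0.57 RPKM in DKI monocytes, or 25 to 77 reads per library. All 6 untreated libraries were thus low and the genotypes overlapped. On day 3 the WT MDCs were at 20.7, 14.5 and 8.69 RPKM, and the DKI MDCs at 0.37, 0.276 and 0.422 RPKM. The groups were far apart, since the lowest WT library exceeded the highest DKI library 20.6-fold. On day 6 the WT MDCs were at 33.8, 16.5 and 40.1 RPKM and the DKI MDCs at 0.703, 0.498 and 0.668 RPKM. The lowest WT library again lay 23.5-fold above the highest DKI library.

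The mean RPKM of Mycl was 14.6 ± 5.99 (SD, n = 3) in WT and 0.356 ± 0.0741 (SD, n = 3) in DKI MDCs on day 3, a ratio of 41.1. It was 30.1 ± 12.2 and 0.623 ± 0.11 (SD, n = 3 each) on day 6, a ratio of 48.3. On the log2(RPKM + 1) scale, on which the added 1 shrinks differences of low values, the DKI minus WT difference was −3.45 (SE 0.30) on day 3 and −4.17 (SE 0.32) on day 6. Without the libraries of the earlier year it was −3.19 and −4.09. In WT cells the mean rose 38.6-fold from day 0 to day 3, a log2 difference of 3.44 (SE 0.31), whereas in DKI cells the day 3 mean was 0.917 of the day 0 mean and the libraries of the 2 days overlapped. The WT libraries of days 3 and 6 overlapped as well, at a day 6 to day 3 ratio of means of 2.06.

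Myc, the family member of dividing cells, did not show this separation. On day 0 it was at 5.33, 9.8 and 13.3 RPKM in WT and 6.25, 8.23 and 14.7 RPKM in DKI monocytes. Libraries that carry the same replicate number were near each other in both genotypes. On day 3 the WT libraries were at 26.1, 17 and 17 RPKM and the DKI libraries at 5.02, 22.7 and 18.2 RPKM. The low DKI value was that of replicate 1, and the other DKI libraries lay within the WT range. On day 6 the WT libraries were at 21, 20.5 and 12.2 RPKM and the DKI libraries at 15.5, 20.1 and 15.9 RPKM, with all DKI values inside the WT range.

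The DKI minus WT log2 difference of Myc was −0.56 (SE 0.52) on day 3 and 0.05 (SE 0.23) without the DKI replicate 1 library. On day 6 it was −0.03 (SE 0.24), and 0.12 after the libraries were centred on their medians. From day 0 to day 3 Myc differed by 1.05 (SE 0.32) in WT cells, where each day 3 library was above each day 0 library. In DKI cells the difference was 0.46 (SE 0.55), with overlapping libraries, and 1.07 (SE 0.35) without replicate 1 of day 3. By day 6 the DKI libraries were also all above their day 0 libraries, at a ratio of means of 1.77. In WT cells that ratio was 1.89, with overlapping libraries.

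Mycn, which is best known from neural and progenitor cells, was at the edge of detection. On day 0 it had 0, 10 and 5 reads in the WT and 4, 17 and 2 reads in the DKI libraries, and on days 3 and 6 it had 0 to 2 reads in each of the 12 libraries. A count of 0 allows up to 3 reads, or 0.0268 to 0.0391 RPKM across the libraries. The highest level, in DKI replicate 2 of day 0, was 0.152 RPKM, and no fold is given.

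**Figure D1:**
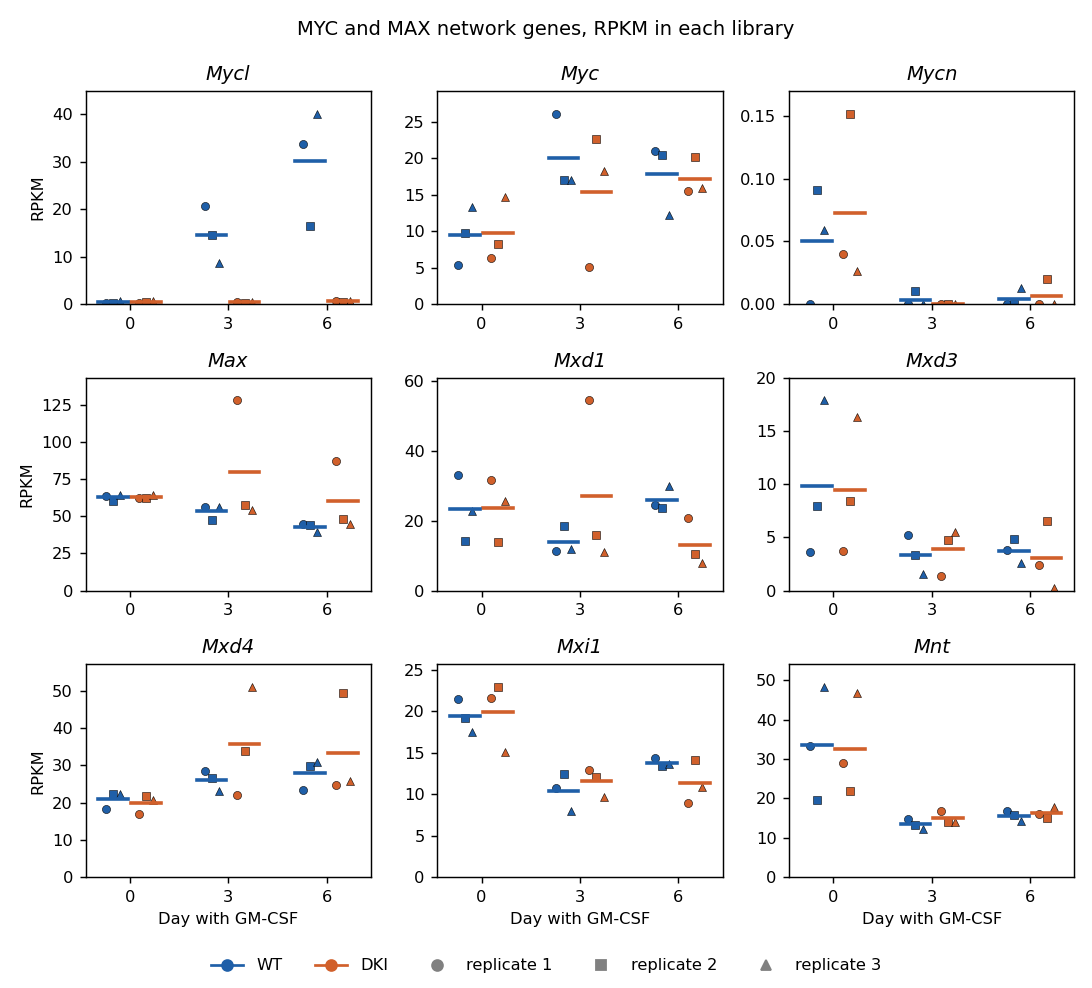
RPKM of the 9 genes in each library (vertical axes, each from 0) by day with GM-CSF (horizontal axes), with WT in blue, DKI in orange, replicate numbers as symbols and group means as lines. Mycl separates the genotypes on days 3 and 6, at 8.69 RPKM or more in each WT library and 0.703 RPKM or less in each DKI library, while Myc overlaps on every day.

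The make-up of the MYC family followed from these values. Because RPKM is scaled by length, it can be compared between genes. Mycl made up 2.4% to 4.82% of the summed Myc, Mycl and Mycn RPKM in untreated WT libraries and 2.84% to 4.67% in untreated DKI libraries. In the WT libraries it was 33.9% to 46% on day 3 and 44.6% to 76.6% on day 6, and Mycl exceeded Myc in WT replicates 1 and 3 of day 6, with ratios of 1.61 and 3.28. In the DKI libraries the share stayed between 1.2% and 6.87% on day 3 and between 2.41% and 4.33% on day 6. The 6.87% is that of replicate 1 of day 3, where Myc was low rather than Mycl high. The summed level of the 3 genes was 25.6 to 46.7 RPKM in WT and 5.39 (replicate 1) to 23 RPKM in DKI libraries on day 3, and 37.1 to 54.8 against 16.3 to 20.7 RPKM on day 6, without overlap on either day. This sum contains Mycl, and the libraries of Myc alone overlapped on both days.

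**Figure D2:**
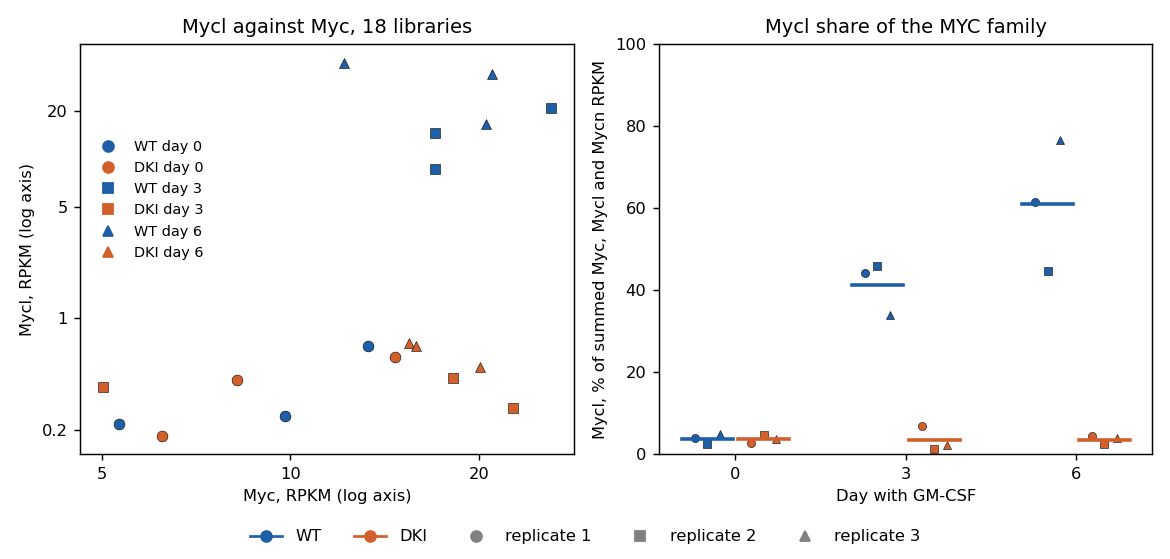
Left, Mycl against Myc RPKM in the 18 libraries (log axes, days as symbols); right, Mycl as a percentage of the summed Myc, Mycl and Mycn RPKM by day, with group means as lines. The 6 WT libraries with GM-CSF form a cloud of high Mycl, and DKI libraries with the same Myc level stay below 1 RPKM of Mycl.

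Max encodes the partner that the proteins of the other members share, and it was the most abundant of the 9 genes on average in each group. It was at 60.6 to 64.5 RPKM in the 6 untreated libraries, with little spread. On day 3 the WT libraries were at 47.3 to 56.4 RPKM, and the DKI libraries had a median of 57.5 and a highest value of 128 RPKM in replicate 1. On day 6 the WT libraries were at 39.2 to 45.1 RPKM and the DKI libraries at 87.1, 48.4 and 45.1 RPKM, again with replicate 1 highest. The DKI minus WT difference was 0.47 (SE 0.34) on day 3 and 0.07 (SE 0.13) without that library. It was 0.42 (SE 0.27, or 0.21 with the replicate number as a block) on day 6, with DKI higher in 3 of 3 pairs of the same number, and 0.13 (SE 0.15) without DKI replicate 1. In WT cells all day 6 libraries were below all day 3 libraries, and all day 3 libraries below all day 0 libraries.

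Among the repressors, Mnt and Mxi1 were lower on days 3 and 6 than on day 0 in both genotypes. Mnt, the broadly expressed MYC antagonist, was at 19.5 to 48.3 RPKM in untreated WT and 21.8 to 46.9 RPKM in untreated DKI libraries. On day 3 it was at 12.3 to 14.8 RPKM in WT and 14 to 16.9 RPKM in DKI libraries, all below day 0. The day 3 minus day 0 difference was −1.18 (SE 0.31) in WT and −1.01 (SE 0.28) in DKI cells. Mxi1, an MXD family member, went from a mean of 19.4 to 10.4 RPKM in WT and from 19.9 to 11.6 RPKM in DKI cells, with differences of −0.85 (SE 0.19) and −0.72 (SE 0.21). Between the genotypes, the differences of Mnt and Mxi1 were between −0.29 and 0.15 on every day, with overlapping libraries.

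Mxd1, an antagonist that typically rises when myeloid cells mature, spread widely. Its untreated libraries ranged from 13.8 to 33.2 RPKM and the genotypes overlapped. On day 3 the WT libraries were at 11.3, 18.5 and 11.8 RPKM and the DKI libraries at 54.5, 16 and 11.1 RPKM, the 54.5 being replicate 1. The day 3 difference was 0.63 (SE 0.56) and −0.02 (SE 0.26) without that library. On day 6 the order differed, with the WT libraries at 24.5, 23.6 and 30 RPKM and the DKI libraries at 20.7, 10.6 and 7.91 RPKM, without overlap. The day 6 difference was −1.04 (SE 0.33), and between −1.4 and −0.76 when single libraries were left out. From day 3 to day 6 the WT mean was 1.88 times higher, without overlap of the libraries, whereas the DKI mean was 0.48 of its day 3 level, with overlap, and 0.964 of it without replicate 1 of day 3.

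Mxd4 was at 16.9 to 22.4 RPKM in the untreated libraries and at 23.1 to 28.5 RPKM in WT libraries of day 3. The DKI libraries of day 3 were at 22.1, 33.9 and 51 RPKM, with replicate 1 below and the others above every WT library. The DKI minus WT difference was 0.36 (SE 0.30), and 0.66 (SE 0.21) without replicate 1. On day 6 it was 0.18 (SE 0.29), with overlapping libraries. Day 3 exceeded day 0 in every library of both genotypes, by 0.31 (SE 0.15) in WT and 0.74 (SE 0.31) in DKI cells, and 1.04 (SE 0.22) without DKI replicate 1 of day 3.

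Mxd3, which is known from dividing cells, was the lowest repressor on average in each group. It was at 3.68, 7.93 and 17.9 RPKM in WT and 3.74, 8.47 and 16.3 RPKM in DKI libraries of day 0, so libraries of the same replicate number matched closely. With GM-CSF it was at 1.39 to 5.56 RPKM on day 3 and 0.222 to 6.53 RPKM on day 6. The 0.222 RPKM, 10 reads, was that of DKI replicate 3 of day 6, and the day 6 difference of −0.57 (SE 0.63) became 0.12 (SE 0.40) without it.

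The activators and repressors of the network can be set side by side by their sums. Mxd1, Mxd3, Mxd4, Mxi1 and Mnt together were at 83.1 to 129 RPKM in the untreated libraries, and the MYC family was 0.0505 to 0.122 of that sum. On day 3 that ratio was 0.425 to 0.661 in WT libraries, 0.285 and 0.204 in DKI replicates 2 and 3, and 0.05 in DKI replicate 1. On day 6 it was 0.424 to 0.66 in WT and 0.216 to 0.264 in DKI libraries, so the genotypes did not overlap on either day. The family sum contains Mycl, on which these genes were chosen, so this separation is not apart from that of Mycl. Max exceeded the MYC family 4.2-fold or more in the untreated libraries, 1.2-fold to 2.2-fold in WT libraries of day 3 and 2.5-fold and 2.92-fold in DKI replicates 2 and 3 of day 3, against 23.7-fold in DKI replicate 1. In the WT libraries of day 6 Max was 0.75 to 1.19 of the family, and in the DKI libraries 2.34 to 5.36.

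The order of the mean levels differed between the groups. On day 0 the first ranks in both genotypes were Max, Mnt and Mxd1, and the last were Mycl and Mycn. Neighbours from Mnt down to Mxd4 or Mxi1 overlapped. In WT cells Mycl moved from rank 8 on day 0 to rank 4 on day 3 and rank 2 on day 6, where its libraries overlapped those of Max above and Mxd4 below. In DKI cells it stayed at rank 8 on each day.

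**Figure D3:**
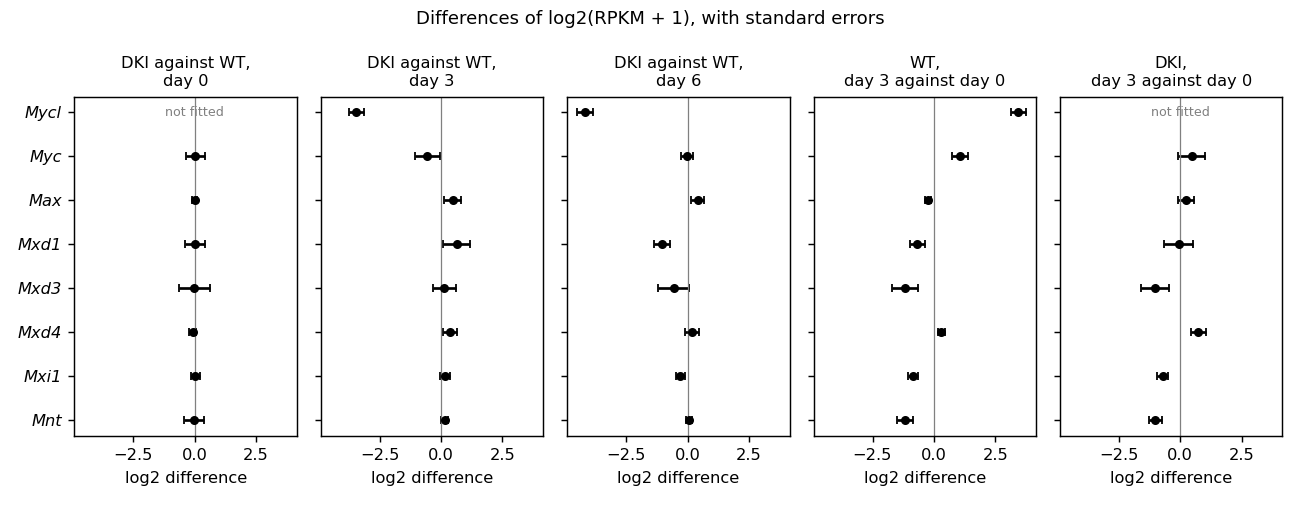
Differences of log2(RPKM + 1) for 8 of the genes (points) with standard errors (bars) in 5 comparisons, the second group minus the first for time and DKI minus WT for genotype. Mycl lies at −3.45 and −4.17 in the genotype comparisons of days 3 and 6, and Mnt and Mxi1 lie below 0 in both time comparisons.

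The fit across all genes took genes with a mean above 2 RPKM in at least 1 of the groups compared, and a gene was called at a Benjamini-Hochberg adjusted p under 0.05 in limma and a fold above 1.5. Mycl passed the filter of days 3 and 6 only through the WT libraries, and it was not in the fits of day 0 or of DKI cells over time. Mycn passed in none. Because the genes were chosen on these values, nothing is read from the following counts. On day 0, 0 of the 7 genes fitted were called, as were 0% of 9179 genes lower and 0% higher, with 44 genes at an unadjusted p under 0.05. None of the 7 was without overlap, against 1.03% of the genes fitted. On day 3, 1 of 8 was called lower in DKI and 0 higher, against 4.21% and 3.21% of 9740 genes, and 1 of 8 was without overlap, against 36.3%. That gene was Mycl. On day 6, 1 of 8 was called lower, again Mycl, and 0 higher, against 4.82% and 2.72% of 9842 genes, and 2 of 8, Mycl and Mxd1, were without overlap, against 37.2%.

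From day 0 to day 3 in WT cells, 2 of 8 were called lower (Mnt and Mxi1) and 2 higher (Mycl and Myc), against 22.8% and 20.3% of 9938 genes, and 6 of 8 were without overlap, against 61%. In DKI cells, 2 of 7 were called lower (Mnt and Mxi1) and 0 higher, against 21.1% and 13.1% of 9922 genes, and 3 of 7 were without overlap, against 55.2%. After centring on medians neither Mnt (−0.84) nor Mxi1 (−0.55) was called in DKI cells, and Mxd4 (0.91) was called higher, as it was without replicate 1 of day 3. The interaction term compares the DKI minus WT difference on day 3 with that on day 0. There 1 of 8 was called lower, Mycl at −3.47 (SE 0.39), and 0 higher, against 1.7% and 1.2% of 10212 genes. The same term was −0.59 (SE 0.71) for Myc, and 0.02 (SE 0.52) without DKI replicate 1 of day 3. These comparisons share libraries and are not independent of each other.

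The median difference over all genes fitted was −0.11 on day 3, −0.17 on day 6, −0.05 in WT and −0.16 in DKI cells over time, and the values that follow are to be read against it. Centring the libraries on their medians turned the DKI split over time from 2097 lower and 1297 higher to 1622 and 1743. It turned the day 6 split from 474 and 268 to 285 and 323.

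Markers of other cells moved with the same comparison. The summed RPKM of 9 monocyte-derived dendritic cell markers was 17700 to 19000 in WT and 1370 to 4980 in DKI libraries on day 3, and 12700 to 22400 against 2110 to 7780 on day 6. Zbtb46, which defines conventional and monocyte-derived dendritic cells, was at 9.73 to 15.7 RPKM in WT and 1.65 to 3.21 RPKM in DKI libraries of day 3. The sum of 6 macrophage markers was 259 to 632 in WT and 1760 to 3800 RPKM in DKI libraries of day 3. These groups of libraries are the ones that Mycl separates, and the part of cell composition in the Mycl difference was not tested.

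Other markers varied between libraries. The sum of 7 neutrophil and precursor markers was 1200 to 1600 RPKM on day 0 and 3.98 to 540 RPKM on days 3 and 6. The sum of 10 proliferation markers was 752 to 1140 RPKM on day 0, 125 to 353 RPKM on day 3 and 84.2 to 331 RPKM on day 6. DKI replicate 1 of day 3 held the lowest Myc, the highest Max and Mxd1, the lowest dendritic cell sum (1370), the highest macrophage sum (3800) and the lowest proliferation sum of that day (125). DKI replicate 3 of day 6, with the lowest Mxd3, also held the lowest proliferation sum (84.2). Whether these go together was not tested.

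Classical monocyte and haematopoietic progenitor markers also separated the genotypes on days 3 and 6. The sum of 5 classical monocyte markers was 1810 to 3040 RPKM on day 0, 759 to 1140 in WT and 1400 to 2290 in DKI libraries of day 3, and 611 to 1070 against 1350 to 1630 on day 6. The 4 haematopoietic progenitor markers were at 43.3 to 49.7 RPKM in WT and 9.17 to 35.8 RPKM in DKI libraries of day 3, and at 44.1 to 55.1 against 13.6 to 21.2 RPKM on day 6. The 5 eosinophil markers summed to 149 to 595 RPKM on day 0 and at most 46.3 later, the 4 basophil and mast cell markers to 12.8 to 121 on day 0 and at most 96.3 later, and the 6 B and plasma cell markers to 34.9 to 268 on day 0 and at most 8.52 later. The 4 plasmacytoid dendritic cell markers summed to 5.32 to 18.5 RPKM throughout. T and NK cell markers reached at most 10 RPKM and erythroid markers 14.9.

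**Figure D4:**
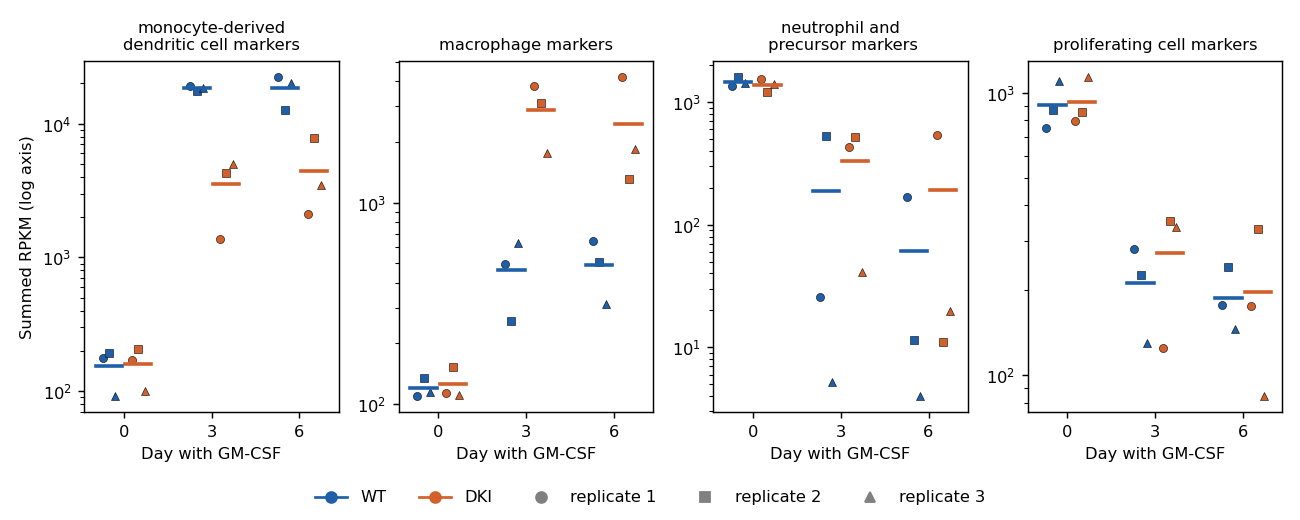
Summed RPKM of 4 marker lists in each library (vertical log axes) by day with GM-CSF, colours and symbols for genotype and replicate, lines for group means. On day 3 the dendritic cell markers sit at 17700 or more in WT and 4980 or less in DKI libraries, and the macrophage markers show the opposite order.

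The wider network was read from 10 lists of 101 genes, of which 98 were in the table. On day 0, 0 of the 94 genes fitted were called in limma, with 0 at an unadjusted p under 0.05 against 0.479% of all genes, and voom also called 0. With the replicate number as a block 0 were called and 3 were at an unadjusted p under 0.05. The main fit does not use the pairing of these libraries, so it does not show that the genotypes were equal. Beside the members, the list of the MLX arm and MGA (Mga, Mlx and Mlxip fitted) had 0 of 3 called in each of the 6 comparisons. The 2 targets of MLXIP and MLXIPL, Txnip and Arrdc4, had 0 called in each, with Txnip, an inhibitor of glucose uptake, at 0.86 (SE 0.25, adjusted p = 0.092 in limma) on day 3 and 1.42 (SE 0.52, adjusted p = 0.137) on day 6 in DKI minus WT. On day 6 Txnip was at 181, 142 and 135 RPKM in WT and 244, 285 and 963 RPKM in DKI libraries, and the difference was 0.80 (SE 0.22) without DKI replicate 3.

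On day 3, 4 of 94 listed genes were called lower in DKI MDCs and 0 higher, where 4.21% and 3.21% of all genes were called, and the list median was −0.26 against −0.11 for all genes, or −0.04 against −0.03 without DKI replicate 1. Slc7a5, an importer of large amino acids, was at 138, 98.9 and 160 RPKM in WT and 11.6, 28.3 and 37.9 RPKM in DKI libraries, a difference of −2.43 (SE 0.44, adjusted p = 0.0277 in limma). Cad, the enzyme that starts pyrimidine synthesis, was at 44, 27.7 and 22.3 against 3.71, 10.4 and 9.8 RPKM, a difference of −1.90 (SE 0.41, adjusted p = 0.0438). The groups did not overlap for either gene. Ccnd2, a cyclin that drives entry into the cell cycle, differed by −2.08 (SE 0.34, adjusted p = 0.0214 in limma). Ndrg1, which MYC is known to repress, also was lower, by −2.06 (SE 0.37, adjusted p = 0.0282 in limma), so the called member of the MYC-repressed list went the same way as those of the activated lists. With the replicate number as a block only Slc7a5 was called (adjusted p = 0.0438), and the adjusted p was 0.0957 for Cad, 0.0623 for Ccnd2 and 0.0713 for Ndrg1. Leaving out any single WT library left 0 listed genes called, leaving out DKI replicate 2 or 3 left 2, leaving out DKI replicate 1 gave 5, and the libraries of the later year gave 3.

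By list, the day 3 calls were 2 of 17 in nucleotide, polyamine and carbon metabolism (Slc7a5 and Cad), 1 of 10 in the cell cycle (Ccnd2) and 1 of 8 among MYC-repressed genes (Ndrg1). The 19 nucleolar genes had 0 called, with a median of −0.39, or −0.11 without DKI replicate 1. Translation and folding had 0 of 10, MYC coactivators 0 of 9, corepressors 0 of 5 and MYC turnover 0 of 11. Across these lists 16 of 94 genes were at an unadjusted p under 0.05 in limma and 16 in voom, against 26.5% and 25.5% of all genes.

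On day 6, 3 of 96 listed genes were called lower and 0 higher, where 4.82% and 2.72% of all genes were called, with a list median of −0.26 against −0.17. Cad was at 29.1, 19.4 and 19.9 RPKM in WT and 8.21, 9.14 and 4.69 RPKM in DKI libraries, a difference of −1.53 (SE 0.27, adjusted p = 0.0301 in limma). It was the 1 of 17 called in its list. The other calls were 2 of 10 MYC-repressed genes, Ndrg2 and Gadd45b. Ndrg2, a stress-responsive relative of Ndrg1, was at 1.39 to 3.95 RPKM in WT and 0.214 to 0.295 RPKM in DKI libraries, a difference of −1.56 (SE 0.32). It passed the filter only through the WT libraries, so it could not have been called higher, and no p is given for it. Gadd45b, a stress-response gene, differed by −0.93 (SE 0.20, adjusted p = 0.0433 in limma). With the block neither was called, the adjusted p being 0.0551 for Gadd45b, while Btg1, also MYC-repressed, was called at 0.0317, as was Cdkn2b, which too passed the filter only through the WT libraries. Without WT replicate 1 or 3 or DKI replicate 1 the number called was 0, without WT replicate 2 or DKI replicate 3 it was 1, and without DKI replicate 2 it was 7. The nucleolar, translation and folding, cell cycle, coactivator, corepressor and turnover lists had 0 called, and 23 of 96 listed genes were at an unadjusted p under 0.05 in limma and 22 in voom, against 28.2% and 27.2% of all genes.

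**Figure D5:**
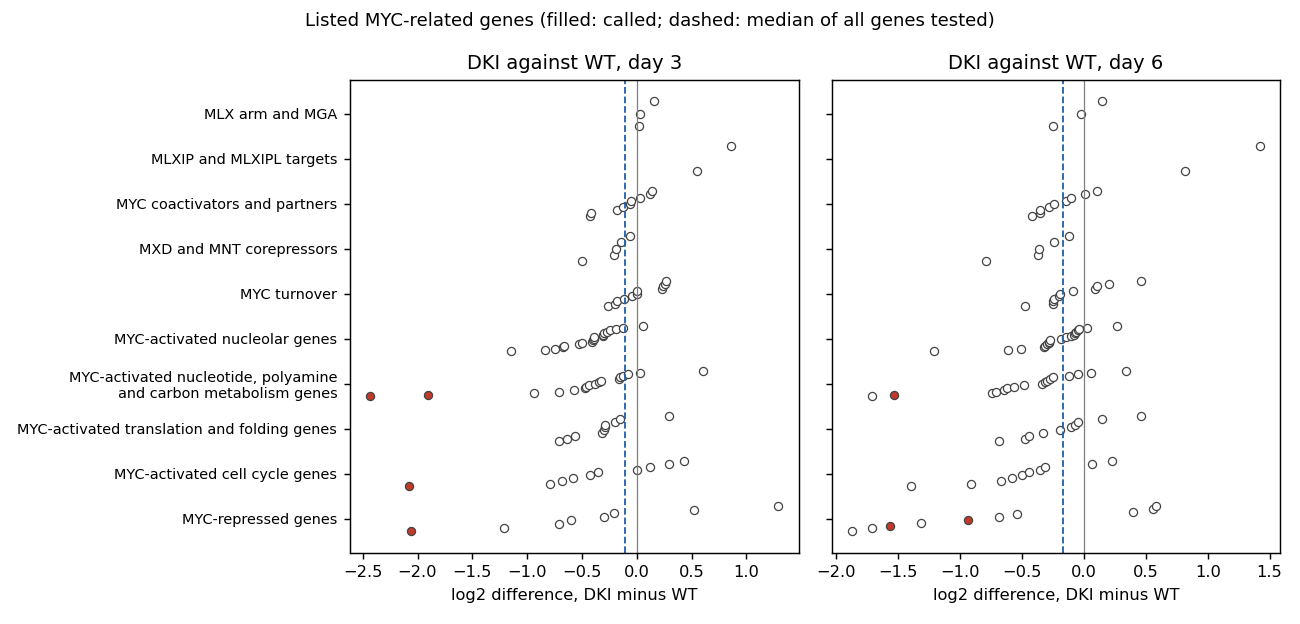
Differences of log2(RPKM + 1), DKI minus WT (horizontal axes), of the listed genes on day 3 (left) and day 6 (right), with 1 point per gene, filled where called, and the median of all genes fitted as a dashed line. Slc7a5, Ccnd2, Ndrg1 and Cad are called on day 3, and Ndrg2, Cad and Gadd45b on day 6.

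Over time in WT cells, 26 of 95 listed genes fell and 14 rose, where 22.8% and 20.3% of all genes were called lower and higher. In the metabolism list 5 of 17 rose, led by Ldha, the lactate dehydrogenase of glycolysis (2.17, SE 0.28, adjusted p = 0.00132 in limma), Tfrc, the transferrin receptor (2.13), and Cad (1.92), and 3 fell, Shmt1 (−1.43), Paics (−0.76) and Impdh2 (−0.75). Of the 19 nucleolar genes 4 rose, led by Nop16 (1.66), Nop2 (0.89) and Pes1 (0.72), and Nop58 fell (−0.75). In translation and folding Phb (1.34) and Hspe1 (0.78) rose and Eif4e (−0.60) fell, of 10, although Eif4e was not called after centring on medians or without any 1 of 5 of the 6 libraries. In the cell cycle list Ccnd2 (5.39, SE 0.38, adjusted p = 0.000128 in limma) and Ccnd1 (4.28) rose and 7 of 11 fell, led by Mcm5 (−2.60), E2f2 (−2.31) and Cks2 (−2.02).

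Of 11 turnover genes 5 fell in WT cells, led by Cip2a, which protects MYC from dephosphorylation (−1.97, SE 0.31, adjusted p = 0.00253 in limma), Aurka (−1.48) and Usp37 (−1.31), or 3 without replicate 3 of day 3. The coactivators had 4 of 9 lower, led by the acetyltransferase Kat5 (−0.77), Zbtb17 (−0.75) and Wdr5 (−0.72), and the corepressors 2 of 5, Sin3a (−0.93) and Ncor1 (−0.66), of which Ncor1 (−0.58) was not called after centring on medians. Of 8 MYC-repressed genes Thbs1 (−3.94), Gadd45a (−2.70) and Cdkn1b (−1.08) fell and Cebpa (1.60) rose. Shmt1 and Cks2 passed the filter in WT cells only through day 0 and Ccnd1 only through day 3.

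Over time in DKI cells, 22 of 95 listed genes fell and 4 rose, or 16 and 6 after centring on medians, where 21.1% and 13.1% of all genes were called lower and higher. Cks2 passed the filter only through day 0 and Ccnd1 only through day 3. Ccnd1 (3.71) and Ccnd2 (3.22, SE 0.34, adjusted p = 0.00187 in limma) rose in the cell cycle list, where 5 of 11 fell, led by E2f2 (−3.14), Mcm5 (−2.31) and Cks2 (−1.96). In metabolism Tfrc (1.60) and Ldha (1.39) rose and Impdh2 (−1.22), Paics (−0.94) and Shmt1 (−0.87) fell, of 17. The nucleolar list had 0 of 19 and translation and folding 0 of 10 called. The turnover genes had 5 of 11 lower, led by Cip2a (−1.77), Aurka (−1.43) and Usp37 (−1.34), or 3 after centring on medians. The coactivators had 4 of 9 lower, led by Zbtb17 (−0.80), Wdr5 (−0.79) and Ep400 (−0.67), or 2 with the replicate block and 1 after centring on medians, and the corepressors Sin3a (−0.92) and Ncor1 (−0.84). Of 8 MYC-repressed genes Ndrg1 (−2.84), Cdkn1b (−1.42) and Btg1 (−1.21) fell.

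These DKI counts moved with single libraries. Without replicate 1 of day 3, 24 listed genes were lower and 8 higher, with 4 metabolism genes higher, 5 MYC-repressed genes lower, 2 nucleolar genes lower and 1 higher, and 1 translation and folding gene higher. Without replicate 1 or 2 of day 0, 14 were lower, and without replicate 3 of day 0, 7 were higher. When single libraries were left out, the coactivators had 0 to 3 lower, the turnover genes 2 to 4 and the metabolism genes 0 to 3, and the cell cycle list had 5 lower and 2 higher each time. Without replicate 2 of day 3, 2 nucleolar genes were lower. The fit of all 18 libraries gave 3 nucleolar genes lower and 1 translation and folding gene higher, and centring on medians also gave 1 translation and folding gene and 1 target of MLXIP and MLXIPL higher.

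Whether the listed genes moved differently in the 2 genotypes was tested by the interaction term. In it 0 of 95 were called in limma and 0 in voom, with 9 and 10 at an unadjusted p under 0.05, against 15.7% and 13.6% of all genes. The lists called in WT and not in DKI cells over time are therefore not shown to differ between the genotypes.

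The genes most like Mycl and Myc were named from the Pearson correlation (r) of log2(RPKM + 1) over the 18 libraries among 10416 genes, as a description, since the libraries share genotype and day. For Mycl the highest were Kcp (0.98), Rtn4r, Nudt17, Pfdn5 and Enah (0.97 each), and the lowest Ano6, Sypl and Cd93 (−0.96 each). Kcp was at 13.7 to 25.3 RPKM in WT and 0.0884 to 0.21 RPKM in DKI libraries of day 3. With group means removed the highest were Lpcat1 (0.92), Nrep (0.92), Kcp (0.90), Plcl1 (0.89) and Fnbp1 (0.88).

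For Myc the highest were Mtap and Srm (0.93 each), which act in polyamine metabolism, Gemin5 and Telo2 (0.91 each) and Tpgs2 (0.90), and the lowest Avl9 (−0.96), Ugcg (−0.88) and Ist1 (−0.87). These ranks rest in part on DKI replicate 1 of day 3. Without it Mtap ranked 2, Telo2 16, Gemin5 18, Srm 24 and Tpgs2 75 from the highest, at r of 0.89 to 0.95. Ugcg and Ist1 then ranked 10301 and 10366. With group means removed the highest were Wdr3 (0.98), Kcnab2 and Nomo1 (0.96 each), Mthfd1 and Srm (0.95 each). Without the same library Kcnab2 ranked 1, Wdr3 2, Nomo1 7, Mthfd1 8 and Srm 31, at r of 0.89 to 0.97. The lists for Mycl and Myc share no gene. Between the members, Mycl and Myc correlated at 0.47 over the 18 libraries and 0.13 with group means removed, and Myc and Mxd3 at 0.08 and 0.76.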

How the data were processed

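RNA-seq was measured in 18 libraries of WT and DKI monocytes and MDCs, 3 per genotype and day, described as independent experiments. The deposited values are RPKM per gene, which the authors made by aligning single-end reads to mm10 (Subread) and counting them on RefSeq genes (featureCounts). Versions, strand and treatment of multiply mapped reads are not given in the sources used here. All 18 columns were used.

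Whole reads were recovered from the deposited RPKM. Library totals followed from the values of genes with 1 read, and gene lengths from the requirement that all values be whole within 0.001 reads, which held for 17012 of the 17013 genes above 0. Totals, or assigned reads, were 29542198 to 43157716 per library. The limit of 3 reads that a count of 0 allows covers counting error only. No libraries held identical values.

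The main test was limma (version 3.58.1, R 4.3.3) with a trend on log2(RPKM + 1), two-sided, for genes whose mean exceeded 2 RPKM in 1 or more of the groups fitted, with Benjamini-Hochberg adjustment over all genes fitted. The p-values set each group difference against the spread between these samples, and the main fit did not use the pairing by replicate number given below. The limma steps were tested on simulated data. Alternatives were a pseudocount of 0.1, no filter, median centring, a fit of all 18 libraries, a replicate block and leaving out each library. Chosen after the data were seen were limma's voom on recovered reads and the libraries of the later year only.

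Replicate numbers paired WT with DKI libraries of the same day, since deviations from group means correlated at 0.69 to 0.87 on day 0, 0.16 to 0.36 on day 3 and 0.34 to 0.41 on day 6. They did not pair day 0 with day 3 (−0.20 to 0.18), and days 3 and 6 were compared in no fit.

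The members and all lists (MLX arm and MGA, MLXIP and MLXIPL targets, MYC coactivators and partners, MXD and MNT corepressors, MYC turnover, nucleolar, metabolism, translation and folding, cell cycle, MYC-repressed genes, and cell type markers) were chosen with earlier results of these data known. Text names the 9 members, up to 3 called genes per list and direction by size, and the 5 highest and 3 lowest correlations with Myc and with Mycl (5 highest with group means removed). Txnip, Arrdc4, Mga, Mlx, Mlxip, Btg1 on day 6 and Cdkn2b are named beyond this rule, chosen after their values were seen. Names of 20082 of 20298 identifiers and all sequences and positions came from RefSeq (GRCm38.p6). Huwe1, Dkc1, Prps2 and Alas2 were not analysed here.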

Additional observations from a re-analysis of the deposited data

Results flagged for a closer look

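Mycl differed between the genotypes in how it moved from day 0 to day 3. The DKI minus WT difference of log2(RPKM + 1) was lower on day 3 than on day 0 by a term of −3.47 (SE 0.39, 3 libraries per group), and it was −3.77 to −3.19 when single libraries were left out. All 3 WT libraries of day 3 were above the WT libraries of day 0, and the DKI libraries of the 2 days overlapped. Mycl was chosen on these values, so the term is a description. None of the listed genes reached the threshold in the same term.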

How the results depend on the processing

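Of 639 recomputed member differences, 623 moved by less than 1 SD of the replicates, none that passed the limits changed direction, and 62 values of the others changed sign. Mycl was −4.94 and −5.30 on days 3 and 6 with a pseudocount of 0.1, and −5.30 and −5.54 with voom, both of which shrink low values less by construction. Myc on day 3 was 0.25 (SE 0.16) in the libraries of the later year.

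Genes called on day 0 were 0, and 6 in the fit of all libraries. On day 3, 723 became 358 without a filter, 1359 with all libraries and 375 in the later-year libraries, and 197 to 718 when 1 library was left out, with losses of over 1.5 times without any 1 WT library or DKI replicate 2 or 3. On day 6, 742 became 187 without a filter, 1573 with all libraries, 466 with voom and 36 in the later-year libraries, and 95 to 991 when 1 was left out, the losses beyond that limit being without WT replicate 1 or 3 or DKI replicate 1 or 3. In DKI cells over time 3394 became 1980 to 3381 when 1 was left out, the lowest without DKI replicate 2 of day 0, and in the interaction 297 became 90 with voom and 123 to 334 when 1 was left out, with such losses without WT replicate 2 or 3 or any 1 DKI library of day 0.

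Among listed genes, the 4 called on day 3 became 1 without a filter, 7 with all libraries and 1 with the replicate block, and 0 to 5 when 1 library was left out (0 without any single WT library). The 3 of day 6 became 0 without a filter, 1 with median centring, 7 with all libraries, 1 with voom and 0 in the later-year libraries, and 0 to 7 when 1 was left out. The causes were not tested. The replicate block moved no other count over all genes or over all listed genes by over 1.5 times. Within single lists over time, where the numbers do not pair the days, it turned the DKI coactivators from 4 to 2 lower and the DKI MYC-repressed genes from 3 lower and 0 higher to 5 and 1, and the 1 translation and folding gene that was lower in WT cells was not called.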
